A study of Danio rerio with 12 samples.

Results

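The distal tubule and collecting duct are the last segments of the nephron, and 34 genes known as salt and potassium transporters, junction proteins, transcription factors or markers of these segments were followed in adult zebrafish kidneys. The members were chosen by name, with earlier results of these data known. A row among the 30238 Entrez gene IDs of the deposited tables was found for 34 of 34. Of these, 33 were found by their present symbol and cldnh by its former one (now cldn3c). RNA sequencing covered 9 kidney samples from fish heterozygous for a knockout of pdx1 (pdx1+/-), a homeobox gene of pancreas and beta cell development, and 3 wild-type samples. RNA had been extracted from total kidneys kept in RNAlater and sequenced from BGISeq-500 libraries. Age in days, sex, allele, family and batch are not in the labels, nor is the number of fish behind a sample. The p-values therefore rest on the spread among these samples, which may be partly technical.

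Cells of these segments take up sodium chloride through cation-chloride cotransporters of the SLC12 family, return chloride to the blood through ClC-K channels with their subunit barttin, and recycle potassium through the ROMK channels of the KCNJ1 family. In fresh water a fish gains water and loses salt, and the distal nephron recovers ions while its junctions keep water out, which gives a dilute urine. The same organ is the main blood-forming tissue of the adult fish, so nephron RNA is sequenced together with RNA of blood cells, vessels and small glands. In such bulk samples, fewer cells of a type and less RNA per cell cannot be told apart.

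Libraries held between 16041392 and 19483852 estimated counts. The mutated gene was near the limit of detection, with a lowest, median and highest level of 0, 0 and 0.669 TPM in pdx1+/- kidneys against 1.06, 0.789 and 0.421 TPM in the wild-type kidneys numbered 1 to 3. TPM is an abundance scaled to transcript length and library total, so it allows levels of different genes to be set side by side. Summed TPM of 9 red blood cell genes ran from 13156 to 55227 in pdx1+/- kidneys and was 57432, 10972 and 35473 in wild-type kidneys 1 to 3. Transcripts of stc1l, which encodes the stanniocalcin of the corpuscles of Stannius (calcium-regulating endocrine glands embedded in the fish kidney), lay between 432 and 2384 TPM in pdx1+/- kidneys and at 1551, 0.389 and 3284 TPM in wild-type kidneys 1 to 3. The second wild-type kidney therefore stood apart in its almost absent stc1l.

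None of the 27 members tested was called different between the genotypes. In the edgeR quasi-likelihood test with Benjamini-Hochberg adjustment over all genes, 0 of the 27 members that passed the filter on low counts were called in either direction at an adjusted p of 0.05, where 0.00421% of the 23732 genes tested were called. No member had an unadjusted p under 0.05, against 5.68% of all genes tested, and DESeq2 called 0 members, against 0.272% of the genes it tested. Fitted levels were higher in pdx1+/- kidneys for 17 members and lower for 10, with a median log2 fold change of 0.05 beside 0.01 over all genes. The ranges of pdx1+/- and wild-type kidneys overlapped for 34 of 34 genes, including the 7 outside the filter. The share of overlapping genes over all genes was not determined, so this count says nothing particular about the members.

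The design allows a statement on the size of change that these data could hide. For 25 of the 27 members both ends of the 95% interval of the log2 fold change lay within 1 of zero, and for 9 members within 0.5. The widest intervals belonged to the low-level channel gene kcnj1a.2, from -0.43 to 1.87, and to the cadherin gene cdh16, from -1.58 to 0.40. A p-value that misses the threshold does not show that levels were alike.

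**Figure D1:**
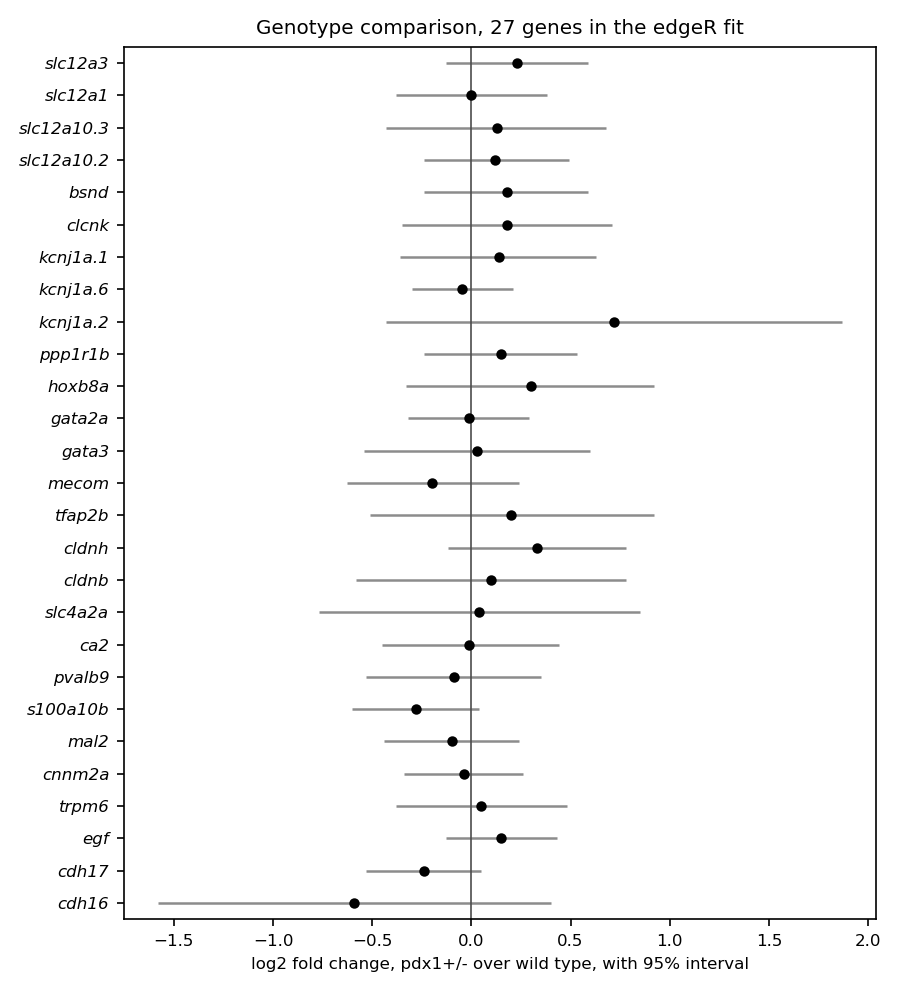
Log2 fold changes of 27 genes, pdx1+/- over wild type, with 95% intervals (edgeR; n = 9 and 3 kidneys). Every interval includes 0, and the interval of kcnj1a.2 reaches 1.87 while that of cdh16 reaches -1.58.

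Among the salt cotransporters, slc12a3 and slc12a1 were abundant, at similar levels. The thiazide-sensitive sodium chloride cotransporter gene slc12a3 (Entrez 565439) had a lowest, median and highest level of 107, 164 and 203 TPM in pdx1+/- kidneys, against 107, 177 and 139 TPM in wild-type kidneys 1 to 3. Between genotypes its log2 fold change came to 0.23 ± 0.17 (approximate SE, edgeR adjusted p = 0.950), and the ranges overlapped. The furosemide-sensitive cotransporter gene of the diluting segment, slc12a1 (Entrez 100329975), had 101, 144 and 182 TPM in pdx1+/- kidneys as lowest, median and highest level, against 107, 165 and 169 TPM in wild-type kidneys. Its log2 fold change was 0.00 ± 0.18, with an interval from -0.38 to 0.38. Within a kidney slc12a3 exceeded slc12a1 in 8 of 9 pdx1+/- and 1 of 3 wild-type kidneys, at a median ratio of 1.07 over the 12 kidneys. The ratio ran from 0.823 to 1.44, and the difference between these genes was not tested.

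Fish carry further copies of the thiazide-sensitive transporter, slc12a10.1 to slc12a10.3, which lie next to each other, with slc12a10.3 in the middle, in the gene order of a RefSeq annotation. Among them slc12a10.3 (Entrez 562763) dominated. It reached 33.0, 56.4 and 75.5 TPM in pdx1+/- kidneys (lowest, median and highest), against 56.6, 44.1 and 49.2 TPM in wild-type kidneys. The 3 wild-type values fell inside the range of the 9 pdx1+/- values, which spread 2.29-fold. The transcript slc12a10.2 is known from the salt-absorbing ionocytes of zebrafish skin, and in the kidney it had only 1.62 to 2.52 TPM in pdx1+/- samples, against 1.52, 2.44 and 1.86 TPM in wild-type samples. For slc12a10.1 levels were between 0.0257 and 0.370 TPM in pdx1+/- kidneys and 0.0710, 0.150 and 0.0237 TPM in wild-type kidneys, or between 1 and 17 estimated counts in any of the 12 libraries.

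Of the summed TPM of slc12a3 and the 3 slc12a10 genes, slc12a3 made up 74.5% ± 5.28 in pdx1+/- kidneys (SD, n = 9) and 72.3% ± 7.19 in wild-type kidneys (SD, n = 3). The share of slc12a10.3 was 24.5% ± 5.28 in pdx1+/- kidneys and 26.6% ± 7.28 in wild-type kidneys, and that of slc12a10.2 was 0.964% ± 0.122 and 0.997% ± 0.0863. The order slc12a3, slc12a10.3, slc12a10.2, slc12a10.1 held in 12 of 12 kidneys. Estimated counts of slc12a10.2 and slc12a10.3 were not whole numbers in 12 of 12 libraries (tolerance 0.001), so some of their reads also fit another transcript, while those of slc12a1 and slc12a3 were whole in each library.

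Of the genes for the potassium channel ROMK, kcnj1a.1 and kcnj1a.6 carried nearly all of the signal. The genes kcnj1a.1 to kcnj1a.6 follow each other in the same annotation with 0 genes between neighbours, and kcnj1b lies on another chromosome. The first copy in the row, kcnj1a.1 (Entrez 386933), had 21.2, 28.9 and 46.1 TPM in pdx1+/- kidneys (lowest, median and highest), against 22.4, 28.4 and 39.3 TPM in wild-type kidneys. The last copy, kcnj1a.6 (Entrez 569052), had 17.8, 24.1 and 30.2 TPM in pdx1+/- kidneys, against 26.5, 26.1 and 24.6 TPM in wild-type kidneys. Its wild-type values were close together, all above the pdx1+/- median and inside the pdx1+/- range. Together they made up 98.1% ± 0.511 of the family's TPM in pdx1+/- kidneys and 98.0% ± 0.907 in wild-type kidneys.

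Which of these came first depended on the kidney and on the unit. In TPM kcnj1a.1 exceeded kcnj1a.6 in 7 of 9 pdx1+/- and 2 of 3 wild-type kidneys, and its share ranged from 42.6% to 68.8% in pdx1+/- kidneys and was 44.9%, 50.6% and 60.8% in wild-type kidneys. In CPM, counts scaled to library size and not divided by length, kcnj1a.6 was ahead on average, at 53.8% of the family against 44.9% for kcnj1a.1 over the 12 kidneys. The log2 fold change was 0.14 ± 0.23 for kcnj1a.1 and -0.05 ± 0.12 for kcnj1a.6.

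The other copies were near the limit of detection. The highest of these was kcnj1a.2, with 0.236 to 0.919 TPM in pdx1+/- kidneys, against 0.226, 0.643 and 0.204 TPM in wild-type kidneys. Its log2 fold change of 0.72 ± 0.53 (edgeR adjusted p = 0.954) rested on between 4 and 19 estimated counts in a library. The filter removed kcnj1a.3, kcnj1a.4, kcnj1a.5 and kcnj1b, whose means over the 12 kidneys were 0.299, 0.0681, 0.00752 and 0.233 TPM. Among them kcnj1a.5 was at 0 in 10 of 12 libraries and kcnj1a.4 in 4. Because the counts of kcnj1a.1, kcnj1a.3 and kcnj1a.6 were not whole in any of the 12 libraries, the division of reads among these copies is uncertain.

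**Figure D2:**
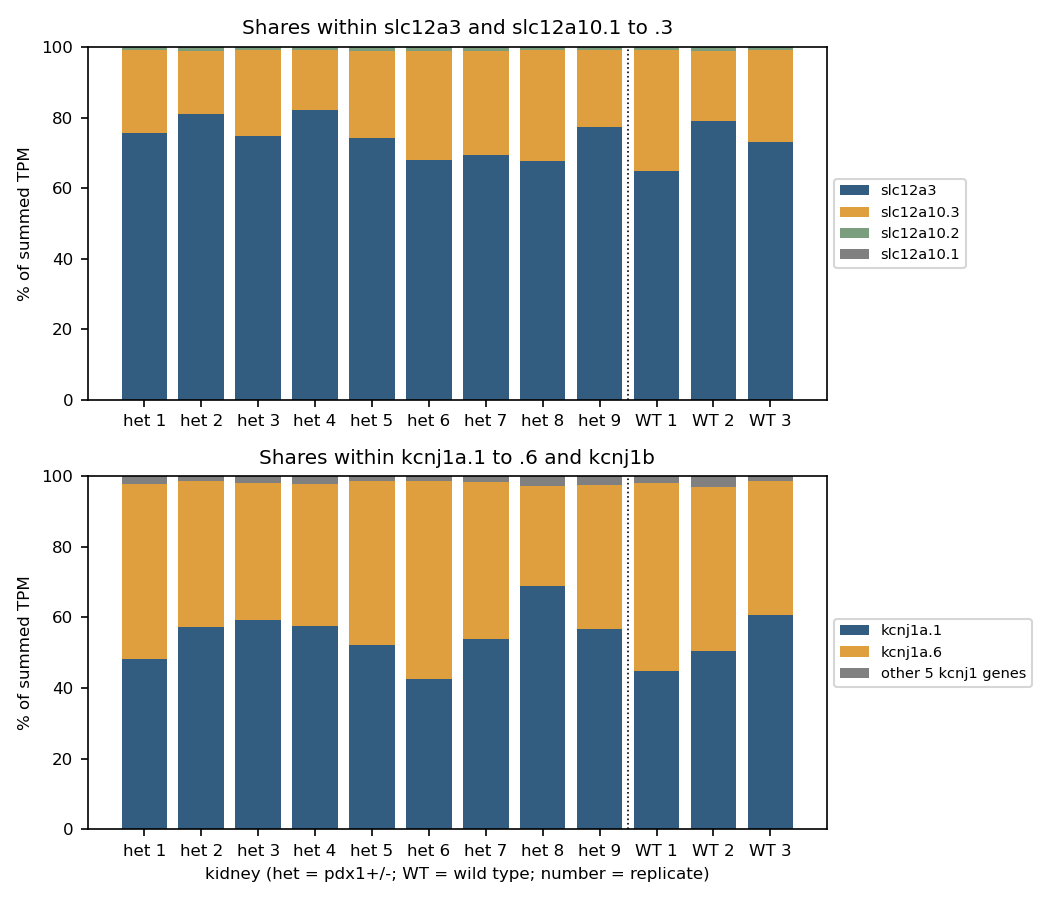
Share of each paralog in the summed TPM of its family, in percent, for 9 pdx1+/- kidneys (left of the dotted line) and 3 wild-type kidneys. In the upper panel slc12a3 holds 64.8% to 82.2% of every bar, and in the lower panel kcnj1a.1 and kcnj1a.6 alternate in first place and together hold at least 97.0%.

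Chloride channel and subunit transcripts were both well above detection. The gene for the ClC-K chloride channel, clcnk (Entrez 393353), had 14.5, 25.2 and 35.8 TPM in pdx1+/- kidneys (lowest, median and highest), against 13.6, 31.3 and 24.1 TPM in wild-type kidneys. That of its subunit barttin, bsnd (Entrez 497323), had 39.3, 55.7 and 82.0 TPM in pdx1+/- kidneys, against 39.3, 59.4 and 53.8 TPM in wild-type kidneys. The subunit exceeded the channel in 12 of 12 kidneys, by 1.55-fold to 2.88-fold in TPM. Their log2 fold changes were 0.18 ± 0.25 and 0.18 ± 0.19 (edgeR adjusted p = 0.997 and 0.988).

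Tight junctions of these segments contain claudins, which set what passes between the cells. The claudin gene cldnh (Entrez 81587) had 72.0, 128 and 153 TPM in pdx1+/- kidneys (lowest, median and highest), against 77.6, 133 and 85.8 TPM in wild-type kidneys. Its log2 fold change, 0.33 ± 0.21, had the third lowest p of the 27 members and did not pass (edgeR adjusted p = 0.947). The other claudin, cldnb, was lower than cldnh in 12 of 12 kidneys, with 5.92 to 15.6 TPM in pdx1+/- and 6.83, 14.7 and 5.96 TPM in wild-type kidneys.

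Low values of several salt-handling genes fell in the same kidneys, a pattern chosen after the values were seen. For 6 of the 27 members in TPM, namely slc12a1, slc12a3, clcnk, bsnd, cldnh and the transcription factor gene tfap2b, the 2 lowest of the 12 kidneys were pdx1+/- replicate 5 and wild-type replicate 1. In CPM this held for the first 5 of these. Next in frequency, any other pair of lowest kidneys was shared by at most 2 members. In those kidneys clcnk was at 14.5 TPM in pdx1+/- replicate 5 and 13.6 TPM in wild-type replicate 1, and the next lowest kidney had 19.01 TPM. The cadherin gene cdh17, which marks the whole tubule in zebrafish, had ranks 2 and 4 from the lowest there, at 751 and 782 TPM, and the potassium channel gene kcnj1a.6 was at 22.0 and 26.5 TPM. Summed TPM of 13 sodium pump genes was also lowest in these 2 kidneys, at 1904 in pdx1+/- replicate 5 and 2179 in wild-type replicate 1. None of the other lists of ion transport, junction and transcription factor genes described below had both kidneys lowest. Regulators of salt transport summed to 524 and 634 TPM in them. Acid and base genes summed to 1272 and 1826 TPM, the latter being the highest of the 12 kidneys. Proximal tubule markers summed to 3274 and 5080 TPM there, the latter being the highest of the 12 kidneys. Red blood cell genes were second highest in pdx1+/- replicate 5 and highest in wild-type replicate 1, at 55227 and 57432 summed TPM. They were next highest in pdx1+/- replicates 4 and 7, at 53617 and 49493 summed TPM. In replicates 4 and 7 slc12a3 was at 160 and 174 TPM, slc12a1 at 114 and 121 TPM, and clcnk at 21.5 and 19.01 TPM. The part of red blood cell genes in the pattern was not tested.

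**Figure D3:**
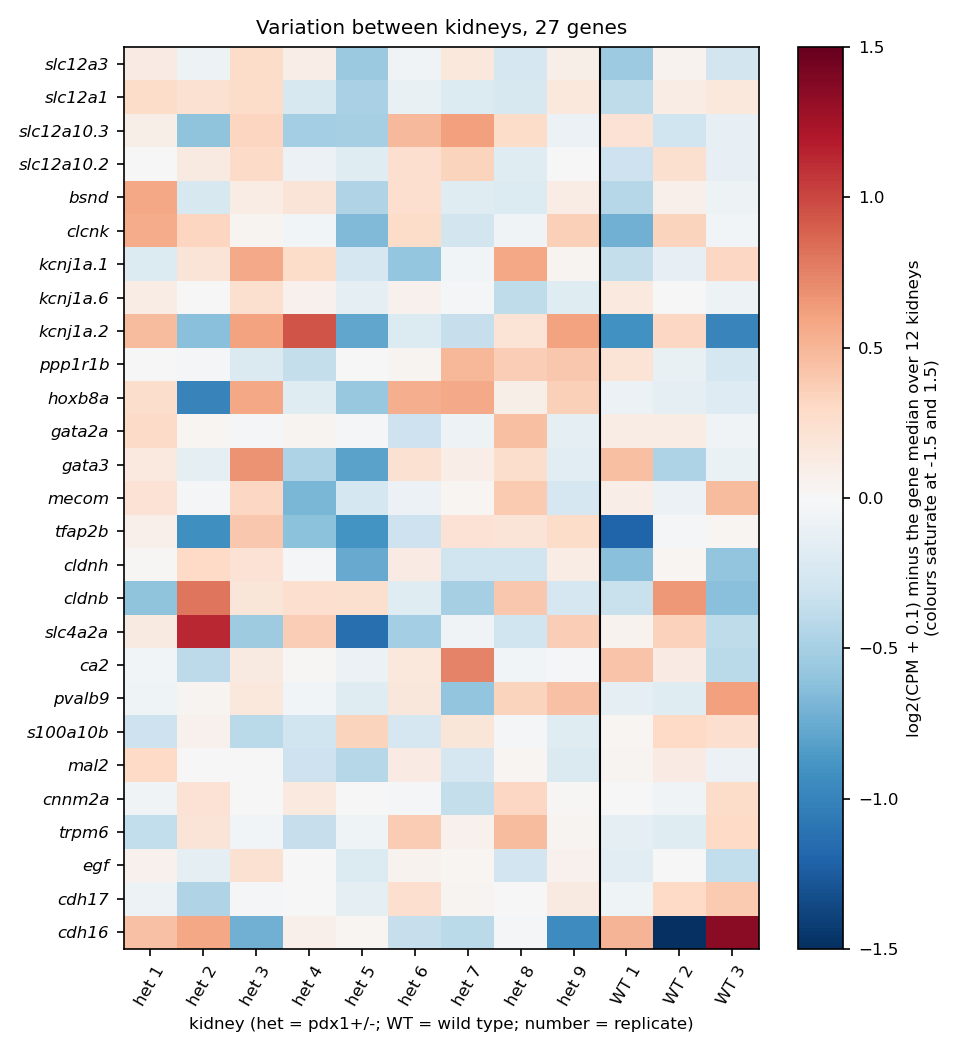
Deviation of 27 genes from their own median over the 12 kidneys, in log2(CPM + 0.1), with 9 pdx1+/- kidneys left of the line and 3 wild-type kidneys right of it. Blue cells in the columns het 5 and WT 1 show the low slc12a1, slc12a3, clcnk, bsnd and cldnh, and in the row of cdh16 the lowest and highest kidneys are WT 2 and WT 3, at 1.996 and 12.8 TPM.

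Across the 12 kidneys, 0 of 351 pairs of members were correlated past an adjusted p of 0.05 in permutation tests of log2 CPM (100000 permutations, Benjamini-Hochberg over the 351 pairs; lowest adjusted p = 0.118 for Pearson's r and 0.133 for Spearman's rho). The pair with the lowest p was slc12a10.3 and hoxb8a (r = 0.85, rho = 0.88, permutation p = 0.00055 and 0.00038; r = 0.78 without pdx1+/- replicates 2 and 7). The channel pair clcnk and bsnd had r = 0.80 and rho = 0.71 (permutation p = 0.00142 and 0.0113, adjusted p = 0.118 and 0.294), and r was 0.61 without pdx1+/- replicate 5 and wild-type replicate 1. The genes of a pair were read from the same libraries, so the points share depth and RNA composition.

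Of the members that are transcription factors, hoxb8a had the highest mean level, 48.2 TPM over the 12 kidneys. This Hox gene (Entrez 30343) had 22.6, 55.2 and 71.0 TPM in pdx1+/- kidneys (lowest, median and highest), against 41.6, 43.4 and 41.7 TPM in wild-type kidneys. The wild-type values were within 2 TPM of each other while the pdx1+/- values spread 3.15-fold, with replicate 2 lowest and replicate 6 highest, so the group means of 50.2 ± 17.5 and 42.2 ± 1.01 TPM (SD, n = 9 and 3) differed by less than the pdx1+/- spread (log2 fold change 0.30 ± 0.29, edgeR adjusted p = 0.983). Its standard deviation among pdx1+/- kidneys, 0.56 on the log2 CPM scale, was at percentile 77.4 of all genes tested. Estimated counts of hoxb8a were not whole numbers in 12 of 12 libraries, so some of its reads also fit another transcript. The same held for gata3, ppp1r1b and trpm6.

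Of the zinc finger factors, gata3, a duct gene that T cells also use, had 6.27, 11.4 and 18.1 TPM in pdx1+/- kidneys as lowest, median and highest level, against 14.5, 8.03 and 10.6 TPM in wild-type kidneys. Levels of gata2a, also known from blood stem cells and vessels, were steadier, at 11.4, 12.7 and 16.6 TPM in pdx1+/- kidneys against 12.996, 14.5 and 13.1 TPM in wild-type kidneys. Both had fold changes close to zero, 0.03 ± 0.26 and -0.01 ± 0.14 on the log2 scale. The factor gene mecom, required for distal identity in the zebrafish pronephros and used by blood stem cells too, had a mean of 4.19 ± 0.980 TPM in pdx1+/- kidneys and 4.96 ± 1.11 TPM in wild-type kidneys. For tfap2b, an AP-2 factor gene of the distal nephron, the means were 3.30 ± 1.13 and 2.93 ± 1.28 TPM.

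Acid and base handling is represented by an enzyme and an exchanger. The cytosolic carbonic anhydrase gene ca2 (Entrez 387526) had 54.0, 66.7 and 114 TPM in pdx1+/- kidneys (lowest, median and highest), against 92.1, 81.2 and 55.8 TPM in wild-type kidneys. It lies on the same chromosome as pdx1, with 166 tested genes between them, and its log2 fold change was -0.01 ± 0.21. The red cell carbonic anhydrase is encoded by another gene, cahz, at 61.7 to 521 TPM in pdx1+/- and 758, 62.8 and 256 TPM in wild-type kidneys.

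The anion exchanger gene slc4a2a (Entrez 566075) had the largest standard deviation of log2 CPM among the 9 pdx1+/- kidneys of the 27 members tested. Levels were 77.8, 160 and 377 TPM in pdx1+/- kidneys (lowest, median and highest), against 175, 235 and 150 TPM in wild-type kidneys. The highest value came from pdx1+/- replicate 2 and lay far above the next pdx1+/- value, 214 TPM. That standard deviation was 0.66, at percentile 83.8 of all genes tested. Over all 12 kidneys the highest value was 4.84 times the lowest, less than the 6.43 times of cdh16, and the log2 fold change between genotypes was 0.04 ± 0.37. The exchanger is known outside the nephron as well, so the cell type behind these reads is not given by the data.

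Of the calcium-binding markers, pvalb9 and s100a10b were among the highest transcripts of the list and calb2a among the lowest. The parvalbumin gene pvalb9 (Entrez 360209) had 195, 317 and 392 TPM in pdx1+/- kidneys (lowest, median and highest), against 272, 280 and 490 TPM in wild-type kidneys. Its highest value was in wild-type replicate 3 and its lowest in pdx1+/- replicate 7. The annexin partner gene s100a10b (Entrez 406276), expressed in many epithelia, had 171, 202 and 283 TPM in pdx1+/- kidneys, against 226, 288 and 280 TPM in wild-type kidneys. It had the lowest p of the 27 members, with a log2 fold change of -0.28 ± 0.15 (unadjusted p = 0.0820, edgeR adjusted p = 0.910), and 6 of 9 pdx1+/- values lay below every wild-type value. The calretinin gene calb2a was at 0 in 6 of 12 libraries and at most at 0.662 TPM in pdx1+/- and 0.529 TPM in wild-type kidneys.

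The magnesium transport genes among the members, trpm6 and cnnm2a, were expressed at low levels. The magnesium channel gene trpm6 had 0.717 to 1.39 TPM in pdx1+/- kidneys, against 0.865, 0.914 and 1.27 TPM in wild-type kidneys. The gene cnnm2a, of a basolateral magnesium transport factor, was above it in 12 of 12 kidneys, with 2.79 to 4.77 TPM in pdx1+/- and 3.57, 4.10 and 5.12 TPM in wild-type kidneys. Transcripts of egf, a growth factor that the mammalian distal convoluted tubule secretes, averaged 2.38 ± 0.339 TPM in pdx1+/- kidneys and 2.20 ± 0.338 TPM in wild-type kidneys. With a log2 CPM standard deviation of 0.16 among pdx1+/- kidneys (percentile 11.2), egf was the least variable of the 27 members. The uromodulin-like gene umodl1 was near zero, between 2 and 12 counts in a library.

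Of the remaining markers, ppp1r1b, which encodes a phosphatase inhibitor, had 15.9, 21.5 and 29.0 TPM in pdx1+/- kidneys as lowest, median and highest level, against 23.6, 20.4 and 18.2 TPM in wild-type kidneys. Its log2 fold change was 0.15 ± 0.18. The gene mal2, of a protein of apical membrane traffic, had 9.28, 11.9 and 15.8 TPM in pdx1+/- kidneys, against 12.7, 14.4 and 12.4 TPM in wild-type kidneys, a log2 fold change of -0.10 ± 0.16.

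**Figure D4:**
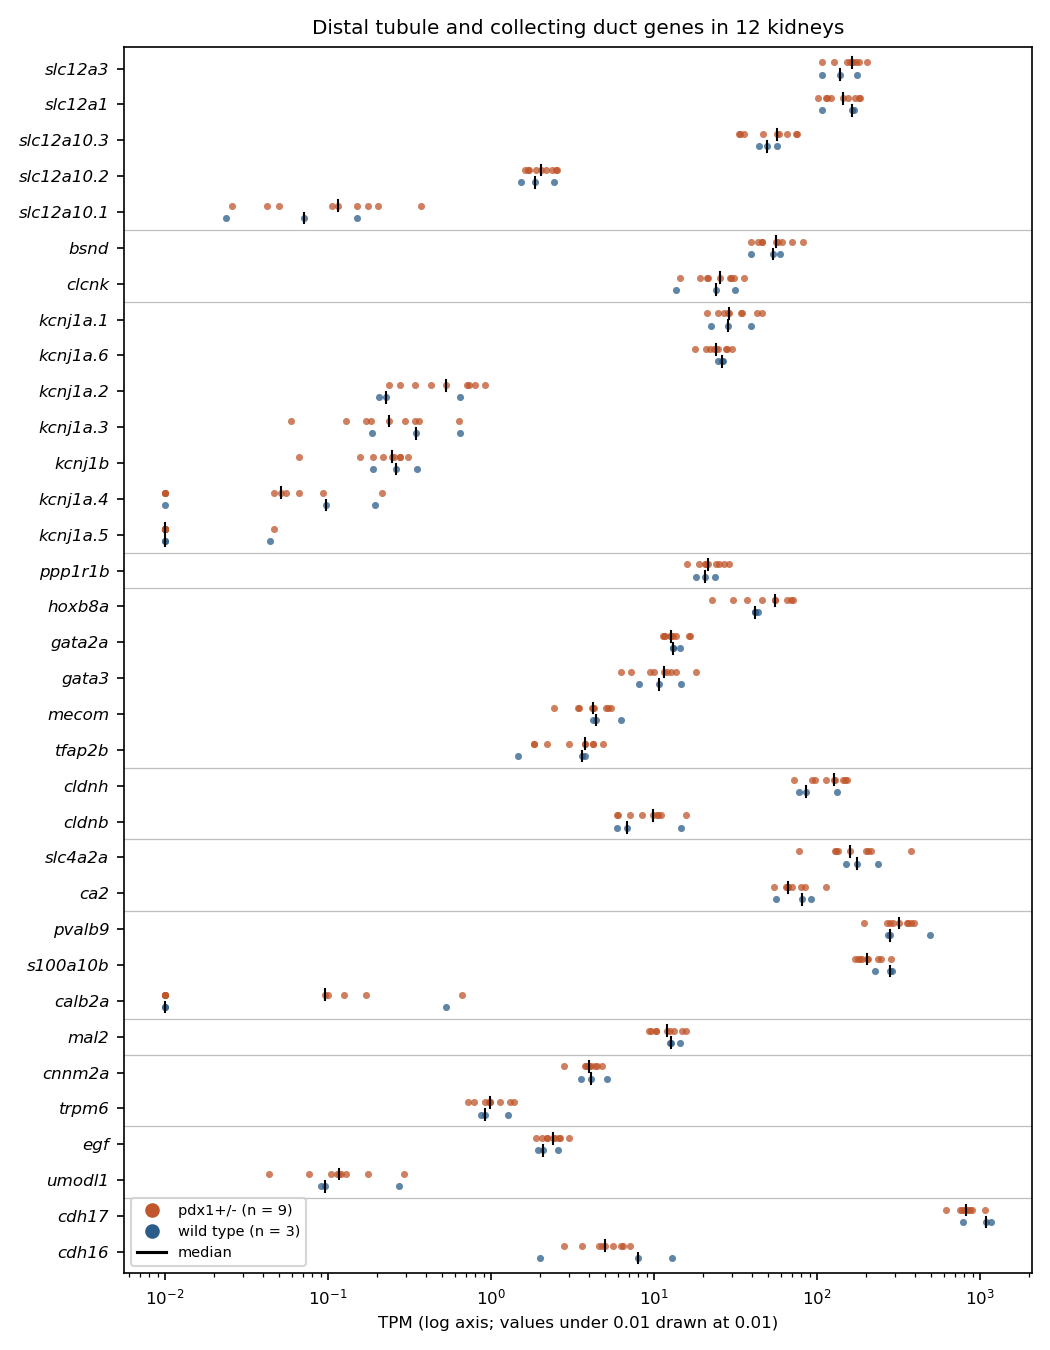
Levels of 34 genes in TPM (log axis), grouped by role, with 9 pdx1+/- kidneys above 3 wild-type kidneys in each row and black ticks at the medians. The cadherin gene cdh17 is highest, slc12a3, slc12a1, cldnh, slc4a2a, pvalb9 and s100a10b lie above 100 TPM on average, and 8 genes lie below 1 TPM on average.

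The cadherins differed in more than level. Cdh17 is an adhesion protein of tubule cells along the zebrafish nephron, and its gene (Entrez 378452) ranked 130 among all genes by mean TPM. It had 620, 824 and 1075 TPM in pdx1+/- kidneys (lowest, median and highest), against 782, 1091 and 1163 TPM in wild-type kidneys. The log2 fold change of -0.24 ± 0.13 did not pass (edgeR adjusted p = 0.913). The mammalian kidney cadherin gene has a counterpart in cdh16 (Entrez 101886380), which had 2.79, 5.01 and 7.15 TPM in pdx1+/- kidneys, against 7.99, 1.996 and 12.8 TPM in wild-type kidneys 1 to 3. The highest and the lowest of all 12 values were thus both wild-type.

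Levels of cdh16 followed those of stc1l, the corpuscle of Stannius gene, a relation examined after the values were seen. Both were highest in wild-type replicate 3, at 440 and 53188 estimated counts, and lowest in wild-type replicate 2, at 48 and 6 counts. Over the 12 kidneys, Pearson's r of their log2 CPM was 0.76 and Spearman's rho 0.95 (permutation p = 8e-05 and 2e-05; adjusted over the 27 members compared with stc1l, p = 0.00216 and 0.00054). Without pdx1+/- replicate 7 and wild-type replicate 2 the value of r was 0.94, and among the 9 pdx1+/- kidneys it was 0.74. The adjustment covers the members and not the choice of stc1l, which was made after the values were seen. No other member passed in the comparison with stc1l over the 12 kidneys, and cdh17 had r = -0.39 and rho = -0.34 (permutation p = 0.207 and 0.285, adjusted p = 0.877 and 0.6). Among the 9 pdx1+/- kidneys alone, some members had an r with stc1l of larger size than cdh16. These were ca2 (-0.91), cnnm2a (0.79), hoxb8a (-0.79) and slc12a10.3 (-0.79). The values of r among these 9 kidneys were not tested. Of the 5 genes listed for these glands only stc1l was abundant, the other 4 averaging 0.101 to 1.99 TPM over the 12 kidneys. These did not share its order. In wild-type replicate 2, where stc1l was lowest, stc2a and stc2b had their highest values, 5.68 and 0.374 TPM. For stc2b that value was only 5 estimated counts, near the limit of detection. In wild-type replicate 3, where stc1l was highest, fam20cl had its lowest value, 1.27 TPM. There stc2a was at 0, as it was in pdx1+/- replicates 1, 2, 3 and 6. Summed TPM of the 5 was 439 to 2386 in pdx1+/- kidneys and 1554, 12.4 and 3288 in wild-type kidneys. Nearly all of it was stc1l, except in wild-type replicate 2, where stc1l was at 0.389 TPM.

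The genotype difference of cdh16 moved with the same libraries. On the log2 scale it was -0.59 ± 0.46 (edgeR adjusted p = 0.967) with all samples and -1.06 without wild-type replicate 2 (edgeR adjusted p = 0.465). Without wild-type replicate 3 it was 0.14, so its direction did not hold with that kidney left out. The direction also turned in a fit with the replicate number as a block, described below. The part of the glands in this difference was not tested.

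**Figure D5:**
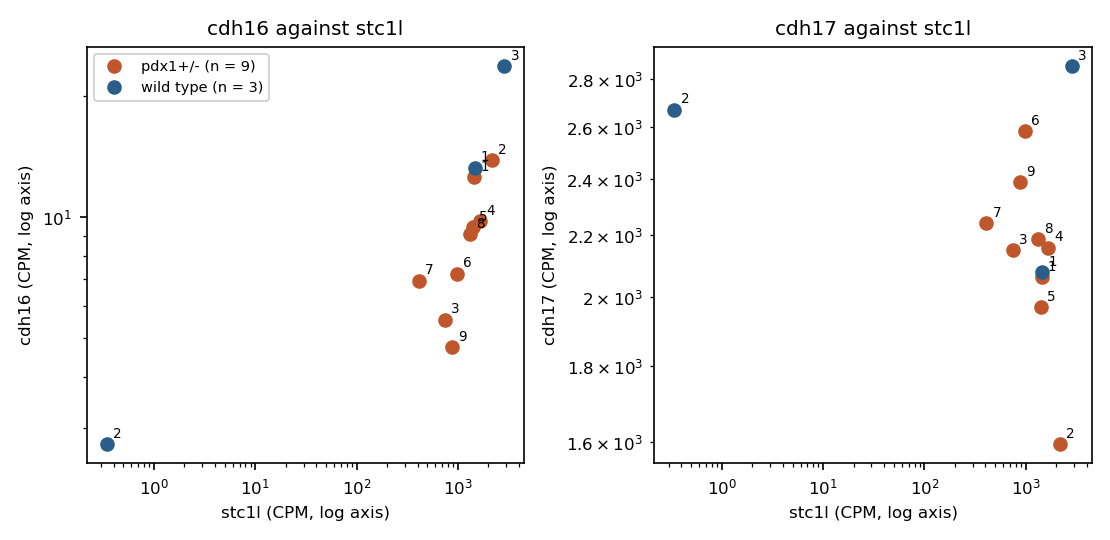
CPM of cdh16 (left) and cdh17 (right) against CPM of stc1l on log axes, with 9 pdx1+/- and 3 wild-type kidneys and their replicate numbers. The points of cdh16 climb with stc1l (Spearman's rho 0.95), those of cdh17 do not (rho -0.34), and wild-type kidney 2 sits alone at 6 counts of stc1l.

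Further genes of ion transport, junctions and distal transcription factors were taken from lists chosen by name, with earlier results of these data known. Both edgeR and DESeq2 called 0 genes in each list. Among 21 tested regulators of salt transport, 10 had higher and 11 lower fitted levels in pdx1+/- kidneys (median log2 fold change -0.02). The kinase gene sgk3 averaged 5.28 ± 0.620 TPM in pdx1+/- kidneys and 7.81 ± 2.69 TPM in wild-type kidneys (log2 fold change -0.51 ± 0.16, edgeR adjusted p = 0.723), and the basolateral potassium channel gene kcnj10a 3.47 ± 0.632 and 2.69 ± 0.556 TPM (0.41 ± 0.16, edgeR adjusted p = 0.820). These were the 2 of 21 genes with an unadjusted p under 0.05, beside 5.68% of all genes tested. The kinase gene wnk3 and the ubiquitin ligase gene cul3b had log2 fold changes of 0.43 ± 0.21 and -0.18 ± 0.11.

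Of 28 claudin and junction genes tested, 21 had higher and 7 lower fitted levels in pdx1+/- kidneys; their median was 0.16 on the log2 scale beside 0.01 over all genes, and 0 had an unadjusted p under 0.05. Lowest in p was tjp3, a scaffold gene of tight junctions, at 4.29 ± 1.68 TPM in pdx1+/- and 2.80 ± 1.102 TPM in wild-type kidneys (0.67 ± 0.32, edgeR adjusted p = 0.886). The claudin genes cldn5a, cldn7b and cldn2 had log2 fold changes of 0.35, 0.39 and 0.62.

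Among 20 tested genes of acid and base transport, 8 were higher and 12 lower, with a median of -0.01. This list is not limited to distal genes. It includes slc9a3.1, also listed as a proximal tubule marker, and cahz and slc4a1a, also listed as red blood cell genes. The sodium-hydrogen exchanger gene slc9a3.1 averaged 105 ± 16.1 TPM in pdx1+/- and 150.3 ± 44.1 TPM in wild-type kidneys (-0.48 ± 0.18, edgeR adjusted p = 0.809). The ammonia channel gene rhcgb averaged 60.2 ± 20.8 TPM in pdx1+/- and 94.4 ± 35.0 TPM in wild-type kidneys (-0.60 ± 0.26, edgeR adjusted p = 0.850). These 2 of 20 had an unadjusted p under 0.05, beside 5.68% of all genes tested, and neither passed over all genes.

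In the lists of transcription factors, of calcium and magnesium genes and of sodium pump genes, 0 genes had an unadjusted p under 0.05. Of 23 distal transcription factor genes, 11 had higher and 12 lower fitted levels (median log2 fold change -0.01). The homeobox gene emx1 had the lowest p of them, at 31.6 ± 7.81 TPM in pdx1+/- and 40.2 ± 4.94 TPM in wild-type kidneys (-0.31 ± 0.19, edgeR adjusted p = 0.943). Calcium and magnesium genes split into 7 higher and 8 lower of 15 (median -0.03), and slc41a1, a magnesium transporter gene, was at -0.27 ± 0.21. For the sodium pump, which drives salt uptake from the basolateral side, 7 of 13 subunit genes were higher and 6 lower (median 0.12). Its beta subunit gene atp1b1a averaged 1799 ± 202 TPM in pdx1+/- and 1610 ± 70.0 TPM in wild-type kidneys (0.21 ± 0.12, edgeR adjusted p = 0.920). Proximal tubule markers, of the neighbouring segment, split into 9 higher and 11 lower of 20 (median -0.02), with 0 called. An unadjusted p under 0.05 was reached by 4 of the 20, beside 5.68% of all genes tested, and all 4 were lower in pdx1+/- kidneys. They were slc34a1a (-0.96), slc22a6l (-0.92), slc47a2.1 (-0.38) and slc9a3.1 (-0.48), the last counted above among the acid and base genes. Summed TPM of the 21 listed markers averaged 3686 ± 616 in pdx1+/- kidneys and 4492 ± 715 in wild-type kidneys (SD).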

How the data were processed

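Whole adult kidneys were sequenced in 12 samples, 9 pdx1+/- and 3 wild type. Per the submitters' processing notes, the authors trimmed reads with Trim Galore 0.6.4 and quantified them with kallisto, listed as 0.4.6, on GRCz11; for annotation and strand, the sources used here give nothing. Estimated counts were deposited without normalization. TPM, as deposited, had been scaled to length and depth by the authors and summed to between 927198 and 946512 per sample. For names and gene order a RefSeq table (GRCz12tu, not the authors' build) was used, with a symbol for 25812 of 30238 IDs. No sequences are printed.

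Counts were rounded and tested in edgeR 4.0.16 (R 4.3.3): filterByExpr with minimum count 10 (23732 genes), TMM, robust quasi-likelihood F test, no covariate, Benjamini-Hochberg over all genes, threshold 0.05. Standard errors are the fold change over the square root of F. CPM uses TMM-scaled library sizes, and log2 CPM a prior count of 2. On simulated data for this comparison (23413 genes) edgeR recovered 30.0% of 100 genes changed 2-fold and 95.0% of 100 changed 4-fold. Of its 129 calls, 4 were false. The simulated spread followed the trend over all genes, and only genes above 1 CPM on average were changed. These rates therefore do not cover members that vary more than the trend or lie lower. A floor of 3 counts is 0.154 to 0.187 CPM, for counting error only. No libraries agreed within sampling noise (lowest chi-square per gene 16.1). Values are given for every member above 10 TPM on average, with up to 4 genes per list by smallest p. Members and lists were chosen with earlier results of these data known. Alternatives included DESeq2 1.42.0, limma 3.58.1, sva 3.50.0 (1 surrogate variable), other scalings and filters, TPM with pseudocounts of 1 and 0.1, a replicate block and each sample left out.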

Additional observations from a re-analysis of the deposited data

Results flagged for a closer look

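Among the 9 pdx1+/- kidneys, 4 of the 34 genes had 1 value far from the other 8 (Dixon's test on the gap to the nearest value, 95% level). For normally distributed values chance alone does this in about 1 in 20 groups. Whether TPM values are so distributed was not examined. That rate does not apply to the 3 genes near zero below, whose values rest on few counts and many zeros. The anion exchanger gene slc4a2a reached 377 TPM in pdx1+/- replicate 2, with the other 8 between 77.8 and 214 TPM. The other cases were genes near zero. The calretinin gene calb2a was at 0.662 TPM in replicate 3, with the others at most at 0.17004 TPM. For kcnj1a.4 replicate 8 had 0.213 TPM and the others at most 0.0935 TPM. For kcnj1a.5 replicate 3 had 0.0466 TPM and the others were at 0.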

How the results depend on the processing

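No member was called under any of 22 alternatives, and the lowest adjusted p of a member was 0.465 (cdh16 without wild-type replicate 2). The median log2 fold change of the members stayed between 0.00 and 0.12. Over all genes, 1 gene was called in the main test, 62 by DESeq2 (44 higher, 18 lower), 3 by limma on log2(TPM + 0.1), and between 1 and 4 with 1 sample left out (2 without pdx1+/- replicate 2 and 4 without pdx1+/- replicate 5). With the replicate number as a block, 0 genes (1674 at an unadjusted p under 0.05) and 0 members were called by edgeR, and the median of the members was 0.10. Replicate numbers 4 to 9 occur only among pdx1+/- samples. In this fit the genotype difference therefore rests on the samples numbered 1 to 3 and is no check on all 12 kidneys. Deviations of same-numbered samples of the genotypes from their group means had correlations of -0.216, -0.159 and 0.096. With 3 such numbers and wild-type means over 3 kidneys, these values cannot show whether the numbers pair samples. The labels do not say. In CPM instead of TPM the share of kcnj1a.1 was 44.9% instead of 54.4%, and that of kcnj1a.6 was 53.8% instead of 43.7%. With 1 sample left out, the fold change of a member changed sign in 40 of 324 cases. Under the 10 alternatives that left no sample out, the block among them, it did so in 19 of 269. For 12 of the 27 members the sign held throughout. For cdh16 it turned in 2 settings, at 0.01 with the block and 0.14 without wild-type replicate 3, and limma-voom gave -0.20 where edgeR gave -0.59. Depth limits the 7 members outside the filter.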

Other observations

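The number of counts behind 1 TPM of cdh16 was not constant between kidneys. After scaling by the median gene, it varied with a coefficient of variation of 16.9% over the 12 kidneys, with a highest value 1.65 times the lowest, at percentile 99.9 of the 8527 genes with more than 200 estimated counts in every library. The gene itself, with 48 to 440 counts in a library, was not among these. The magnesium gene cnnm2a, with 165 to 285 counts in a library, was not among them either. It followed at 5.53% (percentile 97.0). The genes slc12a1, slc12a3 and cdh17, with far more counts (at least 5577, 5604 and 26019 in every library), were at 0.136%, 0.138% and 0.0984%. The genotype difference of cdh16 was -0.26 on the log2(TPM + 1) scale in limma. As a log2 fold change of counts in edgeR it was -0.59, and neither passed the threshold. These fits differ in method and pseudocount as well as in unit, and limma-voom on counts also gave a smaller difference than edgeR. Their gap therefore does not measure the variation in counts per TPM.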
